A study of Mus musculus with 5 samples.

Results

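Ago HITS-CLIP recovers the RNA fragments that are crosslinked to Argonaute, the protein that carries miRNAs to their targets. The sites described here were those whose only annotation was an exon, that is, sites in exons of noncoding genes and not in a coding sequence, a UTR, an intron or a stretch between genes. They were chosen by this annotation, and sites in Malat1, Neat1, H19 and Meg3 (3854 in all) were left out. Of 3254259 seed-matched sites listed in the 5 tables, 127680 were noncoding exon sites: 58444 of 1250128 at e12.5, then 19408 of 393130, 14464 of 390768, 19948 of 761121 and 15416 of 459112 in the e15.5, e18.5, P7 and Adult libraries. The study followed miRNA targeting in mouse liver across development.

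Livers came from C57BL/6 mice, written C57BL/6J in the study's methods, with no treatment or altered allele given in the labels. They were taken at 3 embryonic stages (e12.5, e15.5 and e18.5), at postnatal day 7 (P7) and from adults (Adult). Values said to be in stage order follow this sequence. Ago2 was immunoprecipitated at every stage and an Ago1 antibody was added for P7 and Adult only, so the added antibody and postnatal age cannot be told apart. Each stage was represented by 1 deposited table, called a library below, and every test between stages therefore compared these libraries and not the stages. The embryonic tables each held 2 lists, whose nature the labels do not give. The methods speak of biological replicates for the Ago2 libraries, but nothing in the deposited tables ties a list to one. The study's summary of its libraries names a second sample for e18.5 and for no other stage. Their values are set side by side below as the only view of spread, and the lists were not taken as replicates. In whole liver, fewer cells of a type and less RNA per cell cannot be told apart.

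Noncoding genes give several kinds of RNA that can meet Argonaute. A miRNA gene makes a hairpin that is cut into the mature miRNA, which Argonaute then holds. Long noncoding RNAs (lncRNAs) are spliced transcripts that do not code for protein, and some carry miRNA sites. Small structured RNAs take part in splicing, translation and RNA processing. Pseudogenes are copies of coding genes, and processed pseudogenes keep nearly the whole letter sequence of the mRNA they came from. Fetal liver is a site of blood formation, and the adult liver is mainly hepatocytes.

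The sequences that carry the results are the target fragments of the deposited tables, in mm10. They are written 5′ to 3′ on the strand of the gene, in lower case, with the bases matched to the miRNA seed, and the A facing the first miRNA base where the site has it, in capitals. The first 2 lie in miRNA hairpins, and the third lies in the U6atac small nuclear RNA. The next 3 are the lncRNA sites on which the lncRNA results turn, and the last 3 lie in pseudogenes. The coordinates are those of the matched window in the tables.
Mir451a, miR-451a, chr11:78073218-78073224: agtttagtaatggtAACGGTTc
Mir144, miR-144-3p, chr11:78073022-78073028: ggatatcatcatATACTGTA
Gm25541, miR-451a, chr2:27539848-27539854: cctaacaacacacatACGGTTA
1700020I14Rik, miR-7a-5p, chr2:119602154-119602160: aacaaaatcaccaatGTCTTCCA
1700020I14Rik, let-7c-5p, chr2:119602954-119602960: aaaatggaattcCTACCTCt
1810058I24Rik, miR-26a-5p, chr6:35261178-35261184: aaacctggctaaaaaACTTGAA
Rpl3-ps1, miR-144-3p, chrX:13202967-13202973: ggctttcaccaagTACTGTA
Mug-ps1, miR-194-5p, chr6:122207994-122208000: ccatgtgaatgcaaCTGTTACA
Got2-ps1, miR-122-5p, chr5:138365535-138365541: accatggccctcctgCACTCCA

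The mature miRNAs are shown as the tables write them, with T for U and with the seed, bases 2 to 8, in capitals.
miR-451a: aAACCGTTaccattactgagtt
miR-144-3p: tACAGTATagatgatgtact
miR-7a-5p: tGGAAGACtagtgattttgttgt
miR-7b-5p: tGGAAGACttgtgattttgttgt
let-7c-5p: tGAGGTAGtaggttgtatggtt
miR-26a-5p: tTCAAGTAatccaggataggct
miR-194-5p: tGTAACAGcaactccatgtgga

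Noncoding exons held a small share of Ago clusters, the runs of overlapping reads in which sites lie. Clusters with only noncoding exon sites made up 6364 of 208193 clusters at e12.5 (3.06%, Wilson 95% interval 2.98 to 3.13) and 2462 of 81194 in Adult (3.03%, 2.92 to 3.15). The share was highest at e15.5 with 4.001%, lowest at P7 with 2.36%, and 3.03% at e18.5. The Adult and e12.5 shares differed by a log2 odds ratio of -0.01 (95% interval -0.08 to 0.06, two-sided Fisher's exact test, p = 0.736). By the same Fisher's exact test, the sign turned to 0.22 (p = 0.000167) without sites whose target fragment is also listed under a coding gene. With the first embryonic list alone the value was -0.30 (Fisher's exact test, p = 5.73e-13), and with the second it was -0.17 (p = 1.86e-06). Intervals here and below cover counting error only, and copies of a gene that list the same reads counted as separate clusters. The linker of the libraries held a short barcode, and whether reads with the same barcode were merged is not given in the sources used here.

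The share of reads was larger than that of clusters in every library. The read value of a cluster is its highest read number, the lowest listed being 5, and the column is named after the miRNA target at e12.5 and after the peak at the other stages, so whether both are the same measure is not known. Noncoding exon clusters held 33.8%, 20.6%, 26.8%, 40.2% and 33.9% of all cluster reads in stage order. The lists of the e15.5 table stood apart, with 28.2% in the first and 17.8% in the second. The median noncoding exon cluster held between 12 and 24 reads, against 15 to 38 for clusters in 3′UTRs.

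Sites were sorted into classes by the biotype of the listed gene. Pseudogenes held most clusters and miRNA genes most reads at every stage. Pseudogenes held 81.4% of noncoding exon clusters at e12.5 (95% interval 80.4 to 82.3) and 76.0% in Adult (74.3 to 77.7), but 2.45% and 0.585% of the reads. Genes of the miRNA biotype held 4.68% of clusters at e12.5 (4.19 to 5.23) and 8.57% in Adult (7.53 to 9.74), and between 76.6% of the reads at e12.5 and 97.7% at P7. Small structured RNAs held 3.66% of clusters at e12.5 (3.23 to 4.15) and 6.26% in Adult (5.37 to 7.28). The intervals of these classes did not overlap between the e12.5 and Adult libraries.

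The lncRNA class held 588, 266, 213, 370 and 206 clusters in stage order, which was 9.24%, 8.19%, 9.14%, 12.6% and 8.37% of noncoding exon clusters. The Adult share did not pass the test against e12.5 (log2 odds ratio -0.16, two-sided Fisher's exact test, p = 0.213). It did so without sites whose fragment is also listed under a coding gene (-0.48, Fisher's exact test, p = 0.0016). The sign turned with the first embryonic list alone (0.28, Fisher's exact test, p = 0.0756) and with clusters of at least 10 reads (0.02, p = 0.888). The few remaining sites lay in exons of genes annotated as coding, with 1.01% of clusters at e12.5 and 0.772% in Adult, and are not followed further.

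**Figure D1:**
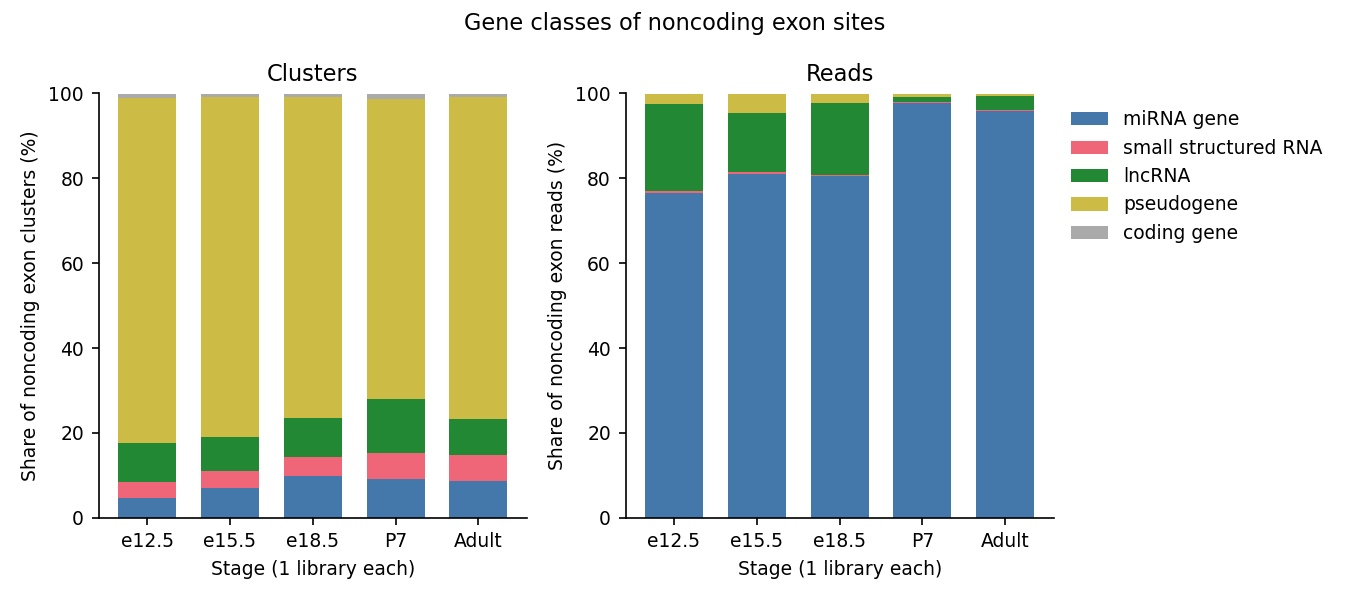
Share in percent of noncoding exon clusters (left) and of their reads (right) by gene class, with 1 bar per stage and 1 library behind each bar. Pseudogenes fill 70.8% to 81.4% of each cluster bar, and miRNA genes fill 76.6% to 97.7% of each read bar.

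Noncoding exon sites named 3329 genes, and 590 of them were listed in all 5 libraries. These were 414 of 2213 pseudogenes, 121 of 271 miRNA genes, 37 of 220 small structured RNA genes, 17 of 532 lncRNAs and 1 of 93 coding genes. The count was 317 with the first embryonic lists alone and 387 with the second.

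Most genes had lower values in Adult than at e12.5, in noncoding exons as elsewhere. Of 1407 noncoding exon genes with at least 50 reads in either library, 143 were at least 2-fold higher in Adult (10.2%) and 1073 at least 2-fold lower (76.3%). Among genes listed in both libraries 106 were higher and 531 lower, so many of the lower calls were of genes unlisted in Adult. The 50-read filter acted on reads before scaling. The e12.5 library held 44867326 cluster reads against 24885228 in Adult, so genes could pass the filter more easily there. The values compared were RPM, a gene's cluster reads scaled to equal summed cluster reads in each library, with unlisted genes set at the floor of 5 reads. Over 14096 genes with clusters in any region, 15.9% were at least 2-fold higher and 62.8% lower, with a median log2 change of -1.82. The shares were 25.8% and 57.6% among miRNA genes, 15.7% and 65.7% among small structured RNAs, 9.20% and 81.6% among lncRNAs and 6.24% and 80.6% among pseudogenes. The median was -2.76 for noncoding exon genes, -1.86 for miRNA genes, -2.08 for small structured RNAs, -3.08 for lncRNAs and -2.85 for pseudogenes. Relative to the median of all genes, 307 were higher and 679 lower. The shares of all genes under this rule, and among genes listed in both libraries, were not computed. The all-gene values above use the same filter and floor, and how many genes of each class rest on the floor was not counted. No test is possible with 1 library per stage.

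The deepest miRNA genes included those of miRNAs known from red blood cells and from hepatocytes. Between 89.5% and 99.9% of these reads lay in clusters that also carry the name of a mature miRNA arm. Whether the reads of such a cluster came from the mature miRNA or from its precursor was not tested. A seed match there is a match of letters within a hairpin. Sites matched to a miRNA of the same hairpin were 69 of 2646 at e12.5 and 31 of 945 in Adult.

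Mir451a, whose miRNA is matured by Argonaute itself in red blood cell precursors, carried 39574, 21294, 15778, 2139 and 6628 RPM in stage order. Its own hairpin gave the site shown above. Of sites of the 12 miRNAs followed here with at least 7 matched bases and listed in all 5 libraries, it had most reads. That site had 1060600, 278734, 191109, 34769 and 159875 reads in stage order. Mir144 lies beside Mir451a on chromosome 11 and is made in the same transcript. It carried 123487, 2180, 9941, 14507 and 14076 RPM in stage order. Its first lists held 44789, 843 and 657 RPM in stage order and its second lists 162259, 2669 and 45389. The deep cluster of its 3p arm was not listed in either e15.5 list or in the first e18.5 list, so those values are of the 5p arm and are not comparable with the others. Its 5p arm held the miR-144-3p match shown above, with 56618, 32269, 6772, 3365 and 3955 reads in stage order. Read numbers of single sites here and below are not scaled to library size, and libraries differ in depth.

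Mir136, of the imprinted cluster on chromosome 12, carried 17801 RPM at e12.5 and 300 in Adult, which was 59.4-fold lower. Mirlet7c-2, a let-7 gene of differentiated cells, carried 1296 at e12.5, 39563 at P7 and 71703 in Adult, a log2 difference of 5.79 that was 2.01 with sites of at least 7 matched bases. Mir194-2, of a liver miRNA, carried 2790, 47444 and 64052. Both stood higher in P7 and Adult than in either list of any embryonic table. Mir122a, the gene of the main hepatocyte miRNA, carried 8068 RPM at e12.5, 53855 at e18.5 and 88506 at P7 but 557 in Adult, where its 5p arm had no listed cluster. Only clusters with a seed match are in the tables, so the Adult value is that of the 3p arm and gives no level of the miRNA.

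The gene with the highest ratio of Adult to e12.5 was Mir802, whose miRNA is known from liver, with 27, 68, 229, 1291 and 20491 reads in stage order, those of e12.5 all in the second list and those of e15.5 of its 3p arm alone. Mir7k had no listed cluster before birth, 76 reads at P7 and 933 in Adult. The lowest ratios belonged to Mir181b-2, Mir665, Mir219a-1, Mir495 and Mir431, with 38879, 23261, 23006, 18986 and 18304 reads at e12.5 and no listed cluster in Adult, followed by the pseudogene Gm13268 described below. The e15.5 library held only 51 reads of Mir181b-2, all of its 3p arm, against 24394 of the 5p arm at e18.5. All of its e12.5 reads were in the second list, so with the first lists alone it was listed neither at e12.5 nor in Adult and had no ratio. Each of the other 4 was in both e12.5 lists. Mir665, Mir495 and Mir431 lie in the imprinted cluster of chromosome 12, as Mir136 does. These are the ends of a ranking and carry no test. Only clusters with a seed match are listed, so their absence in Adult, or that of Mir7k before birth, gives no level of the miRNA.

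Of the 6 sites of the 12 miRNAs with most reads among those listed in all 5 libraries, 5 lay in miRNA genes. A miR-92a-3p match in Mir130a had 1936 reads at e12.5 and 5690 in Adult, a miR-142a-3p match in Mir148a had 1399 and 6271, and a miR-30a-5p match in Mir30c-2 had 260 and 1327. Of 728 sites with at least 7 matched bases for these 12 miRNAs, 48 were listed in all 5 libraries. Pseudogenes held 32 of them, miRNA genes 7, small structured RNAs 6 and lncRNAs 3.

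Among lncRNAs, Yam1 and its neighbour Gm26917 held between 92.3% of the reads (P7) and 98.8% (e12.5). The Yam1 sites spanned chr17:39846957-39848789, which matches the GENCODE lincRNA Gm42418, and RefSeq places Rn18s-rs5, an 18S ribosomal RNA related sequence, at chr17:39846354-39848202. Between 67.7% (P7) and 83.6% (e15.5) of the Yam1 sites lay inside Rn18s-rs5. Reads of ribosomal RNA and of a Yam1 transcript cannot be told apart at this locus. Yam1 carried 68626, 27488, 44283, 4886 and 10732 RPM in stage order. The lists of the same table lay far apart, with 149030 in the first and 29013 in the second at e12.5, then 81545 and 7674, and 54151 and 6608, in the next 2 tables. The Adult value lay within the range of the embryonic lists.

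Gm26917 stood higher in Adult than in any embryonic list, against the direction of Yam1. It carried 204, 55.6, 349, 110 and 803 RPM in stage order, the Adult value being 3.94-fold higher than that of e12.5. In the e12.5 table the first list gave 456 and the second 79.6, and against the first list alone the log2 difference was 0.82, short of 2-fold. The other lncRNAs together carried 801, 803, 662, 420 and 179 RPM in stage order.

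1700020I14Rik, a lincRNA on chromosome 2 (chr2:119594297-119607502, plus strand) that is also called Oip5os1 or Cyrano, had the highest mean share of reads among these other lncRNAs, although C4a stood above it in Adult. It is known for a highly complementary miR-7 site through which it lowers miR-7. It carried 209, 187, 137, 55.5 and 17.8 RPM in stage order, the Adult value being 11.7-fold lower than that of e12.5. The log2 difference was -4.41 with the first lists alone and -2.81 with the second. Every embryonic list was above the P7 value, the lowest being 80.7 in the second e18.5 list. Its clusters numbered 62, 42, 29, 32 and 17 in stage order.

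The highly paired miR-7 site was among these clusters and was listed in the e12.5 and e15.5 libraries only. In the fragment shown above, the first 8 bases of miR-7a-5p pair without a gap, and a further run of 11 bases pairs beyond the seed, in a miRNA of 23 bases. This 8mer, with a conservation score of 1, had 485 reads in the first e12.5 list and 214 in the second, and 56 and 68 in the e15.5 lists. It was not listed at e18.5, P7 or Adult, although miR-7a-5p sites elsewhere were listed in each of these tables, 2362 of them in Adult. miR-7b-5p has the same seed and the same site. Another miR-7 8mer of this RNA had 140 reads at e12.5 and was listed nowhere else, and a 7mer had 64 reads at e12.5 and 44 at P7. A let-7c-5p site further downstream, with a conservation score of 0.994, was listed at every stage, with 95, 69, 209, 138 and 107 reads in stage order. A site for miR-221-3p and miR-222-3p, which share their seed, was listed at every stage as well, with 251, 153, 13, 192 and 43 reads. The stages at which a site was listed carry no test.

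Gm27177 and Gm15564 are annotated as antisense, and 98.9% and 100% of their sites had fragments also listed under a coding gene, mainly Gm28049 and Lars2. Gm27177 carried 89.3, 78.3, 32.7 and 3.88 RPM from e12.5 to P7 and was not listed in Adult, where Gm28049 was not listed either. Gm15564 carried 33.9, 40.2, 26.4, 25.4 and 3.82 RPM, and Lars2, of mitochondrial translation, 187, 210, 126, 297 and 173.

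1810058I24Rik (chr6:35252654-35263496, plus strand), annotated as a lincRNA, had a miR-26a-5p site in all 5 libraries. Whether this RNA also codes for a protein was not tested, so the site may not be a noncoding one. The site had 52, 87, 142, 82 and 66 reads in stage order, with a conservation score of 0.995. This site, the let-7c-5p site of Cyrano and a miR-126a-3p site in Yam1 were those of the 12 miRNAs seen at every stage in genes annotated as lncRNAs. All 3 had at least 7 matched bases, as this count required.

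Of 17 imprinted and X-inactivation lncRNAs, 6 had noncoding exon sites, and 4 of 4 that could be compared were at least 2-fold lower in Adult, beside 62.8% of all genes and 81.6% of lncRNAs. Relative to the median of all genes, 2 of these 4 were lower and 0 higher, with no share of all genes computed under that rule. Rian, the snoRNA and miRNA host of the chromosome 12 imprinted cluster, carried 39.7, 57.6, 33.2 and 10.3 RPM from e12.5 to P7 and was not listed in Adult, which was at least 198-fold lower. Xist, which silences an X chromosome, carried 24.4, 44.9, 18.9, 7.64 and 9.16 in stage order, lower in Adult by a log2 change of -1.42 but higher by 0.41 relative to the median of all genes. Kcnq1ot1, the antisense RNA that silences its imprinted domain, carried 20.9, 10.6, 7.23, 3.15 and 5.59, and its e12.5 lists held 47.1 and 7.92. Its log2 difference was -1.90, or -0.50 with the second list alone and -0.08 relative to all genes. Igf2os had 212 reads at e12.5, 19 at P7 and none listed in Adult.

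**Figure D2:**
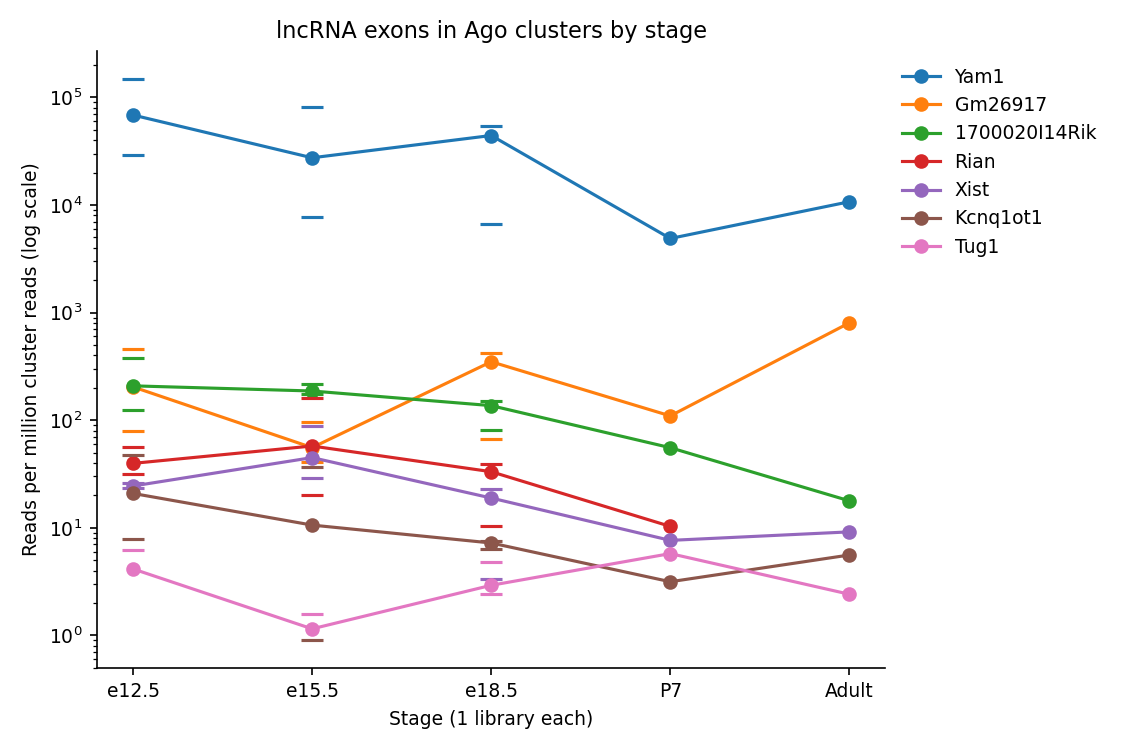
RPM (cluster reads scaled to equal library sums, log scale) of 7 lncRNAs by stage, with 1 library per point and short bars for the 2 lists of each embryonic table. Yam1 lies above the others at every stage with lists far apart, and 1700020I14Rik runs from 209 at e12.5 to 17.8 in Adult. A gene without a listed cluster has no point.

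The other gene lists had few members with reads. Of 24 snoRNA host genes 9 had sites, and of the 3 that reached 50 reads in e12.5 or Adult all were at least 2-fold lower in Adult, beside 81.6% of lncRNAs and 62.8% of all genes. Gas5 carried 9.72 RPM in the first e12.5 list and 1.26 in the second, near the Adult value of 1.08. Snhg12 was listed only in the second e12.5 list, with 2.96 RPM. Snhg1 was in second lists alone before birth, with 2.79, 13.2 and 1.85 RPM in stage order, had 1.70 at P7 and was not listed in Adult. Of 20 miRNA host genes 8 had sites, and Rian alone could be compared. Of 20 liver and blood lncRNAs 4 had sites, and Gm26917 alone could be compared. Of 21 lncRNAs with known miRNA sites or nuclear roles 8 had sites and 4 could be compared, 1 higher and 2 lower, beside 15.9% and 62.8% of all genes and 9.20% and 81.6% of lncRNAs. Relative to the median of all genes, 2 of these 4 were higher and 1 lower, and 2 of the 3 snoRNA host genes were lower. No share of all genes was computed under that rule. Tug1 carried 4.15 RPM at e12.5 and 2.41 in Adult, and did not reach 2-fold. It was absent from the first e12.5 list, and with the first lists alone it was higher in Adult by 2.84 on the log2 scale.

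Small structured RNAs held little of the reads but had a few deep clusters. Gm25541, the U6atac RNA of the minor spliceosome by RefSeq (chr2:27539805-27539930, minus strand), carried the miR-451a match shown above. It had 11228, 4182, 1138, 1810 and 16 reads in stage order. Both lists of e12.5 held it, with 398 and 374 RPM over the gene. The last 13 bases of this fragment were also listed in the 3′UTRs of C5ar2, where it overlaps another U6atac-type gene, Gm26473, and of Matr3, with 5901 and 1069 reads at e12.5. The reads cannot be assigned to a single copy.

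Of 25 small structured RNA genes in the list chosen, 17 had sites, 13 of them in all 5 libraries. Of the 15 that could be compared, 3 were at least 2-fold higher in Adult and 8 at least 2-fold lower, beside 15.9% and 62.8% of all genes. Relative to the median of all genes, 7 were higher and 3 lower, with no share of all genes computed under that rule. The 3 higher ones before that rescaling were the mitochondrial 12S ribosomal RNA mt-Rnr1 (20.7 RPM at e12.5 and 122 in Adult) and the 7SL RNAs Gm22405 (23.0 and 80.8) and Gm26191 (23.0 and 88.0), copies listed with the same reads in the embryonic libraries. With the first lists alone the 7SL RNAs did not reach 2-fold (log2 differences 0.66 and 0.78), and the first e18.5 list held 74.3 RPM of each. mt-Rnr2, the 16S RNA of the same organelle, carried 71.7, 179, 9.30, 37.5 and 62.1 RPM in stage order. Over the same libraries mt-Rnr1 carried 20.7, 74.6, 16.8, 28.2 and 122, so neither moved in 1 direction. The lower ones included Rnu3a, the U3 snoRNA of ribosome assembly, with 2554, 444, 82, 74 and 13 reads in stage order, a log2 difference of -6.77 that was -8.12 with the first lists alone and -4.70 with the second. Rn7sk, which holds the elongation factor P-TEFb, was lower in Adult by a log2 change of -1.63, but higher by 0.11 with the second embryonic list alone and by 0.19 relative to all genes. Rpph1, the RNA of RNase P, had a log2 difference of -3.10 that was -1.23 with the second lists alone. Rmrp, of the related RNase MRP, had one of -2.02 that was -0.46 with the second lists, short of 2-fold. Rny3, a Y RNA, differed by -0.41, or by 0.59 with the second lists alone.

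Pseudogenes were the largest class, and most of their target fragments could not be told from those of a coding mRNA. In each library 67.5% to 71.4% of pseudogene sites had a fragment that was also listed, for the same miRNA, in the coding sequence or UTR of a gene. The share was 9.61% for sites in introns only and 22.8% for sites outside genes, over all libraries. It was 14.6% for lncRNAs, 6.18% for miRNA genes and 2.28% for small structured RNAs. Of pseudogene sites over all libraries, 56.0% had a coding partner with the same read number as well. Of 2213 pseudogenes, 1900 had such a fragment, 1454 had it at 50% of their sites or more, and 340 had a ribosomal protein gene as their main partner. Reads from a pseudogene and from its coding copy cannot be told apart at these fragments.

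**Figure D3:**
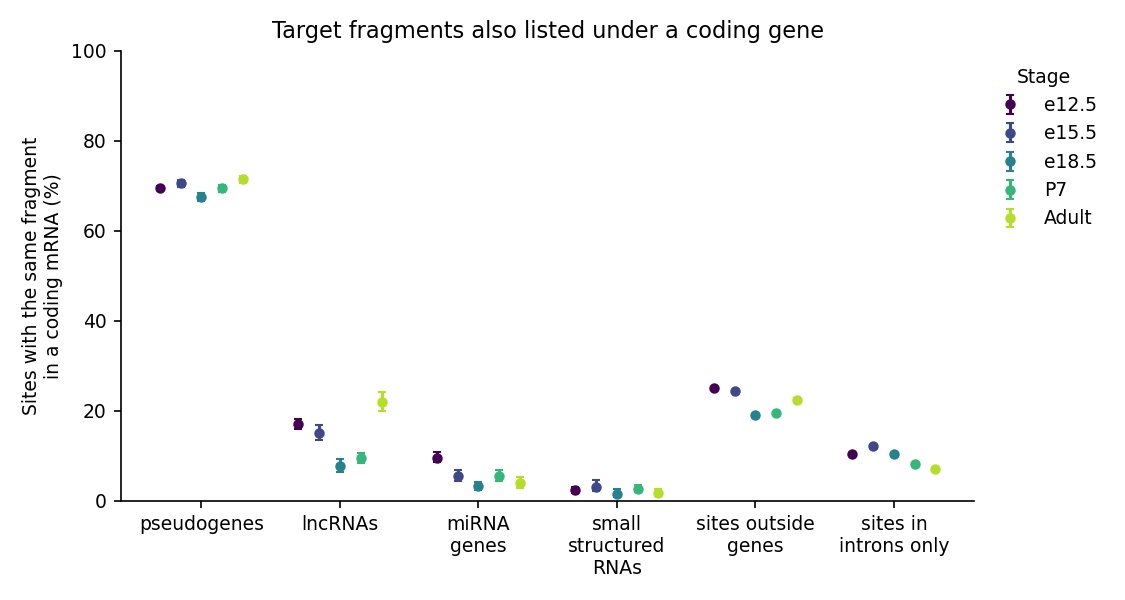
Percent of sites whose target fragment is also listed, for the same miRNA and library, in a coding gene's CDS or UTR, by class and stage with Wilson 95% intervals. Pseudogene points lie between 67.5% and 71.4%, above all other groups.

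The values of the leading pseudogenes are given beside those of the coding gene that lists most of the same fragments, with which they share reads. Hba-ps4, a copy of the alpha-globin genes of red cells, carried 805, 1814, 1306, 323 and 9.16 RPM in stage order. Hba-a1 mRNA carried 29794, 37113, 44948, 16242 and 749. Both were lowest in Adult, by a log2 change of -6.46 for the pseudogene and -5.31 for the mRNA. Gm13268, with the fragments of the ribosomal protein gene Rpl26, went from 491 to 0.362, and Rpl26 itself from 423 to 0.362. Gm12183, with those of the RNA helicase gene Ddx5, went from 163 to 10.8, and Ddx5 from 319 to 20.6. AC092404.1, with those of the chaperone gene Hspa8, went from 58.5 to 29.0, lower by a log2 change of -1.01 but higher by 0.81 relative to all genes. With the second lists alone the change was -0.40, short of 2-fold, and without sites shared with a coding gene it was -2.57. Hspa8 itself had 2882 reads at e12.5 and 498 in Adult, a log2 change of -1.68 after scaling. Gm15484, with those of the nucleolar protein gene Npm1, carried 142, 122, 6.61, 1.76 and 1.29 RPM in stage order, and Npm1 went from 152 to 0.482.

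Among the genes with the highest ratios of Adult to e12.5 were several copies of coding genes. Mug-ps1, a copy in the murinoglobulin family of plasma protease inhibitors, had 5 reads at e12.5, 82 at P7 and 3216 in Adult, and its partner Mug2 had 5, 76 and 4355. Its log2 difference was 10.18, or 8.51 without sites shared with a coding gene and 8.58 with the first lists, that of e12.5 holding none of the 5 reads. The 8mer for miR-194-5p shown above was listed in Adult only, with 860 reads, and the same fragment was listed with 1512 reads in the coding sequences of Mug2 and Mug1. Gm10319, of the same family, had 451 reads in Adult alone. C4a, annotated as a processed transcript and 99.3% shared with the complement gene C4b, had 249 reads at P7 and 503 in Adult, and was unlisted in both e12.5 lists. Against the floor of 5 reads in a list, its log2 difference was 5.90 for the first and 6.92 for the second. C4b itself was listed at e12.5, with 148 reads, and had 527 at P7 and 1616 in Adult.

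Identical sites recurred in several copies. The miR-144-3p match of Rpl3-ps1 shown above was listed with the same letters in Rpl3-ps2 and Gm5879, with 852, 79, 47, 16 and 22 reads in stage order for each of them. The copies thus count 1 set of reads several times. The miR-122-5p match of Got2-ps1, chosen after its values were seen, lies in a copy of the mitochondrial aspartate aminotransferase gene. It had 72, 78, 68, 314 and 204 reads in stage order, not scaled to library size. The fragments of Rpl3-ps1 and Got2-ps1 were each also listed, for the same miRNA, under a coding gene. Their reads cannot be assigned to the pseudogenes.

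**Figure D4:**
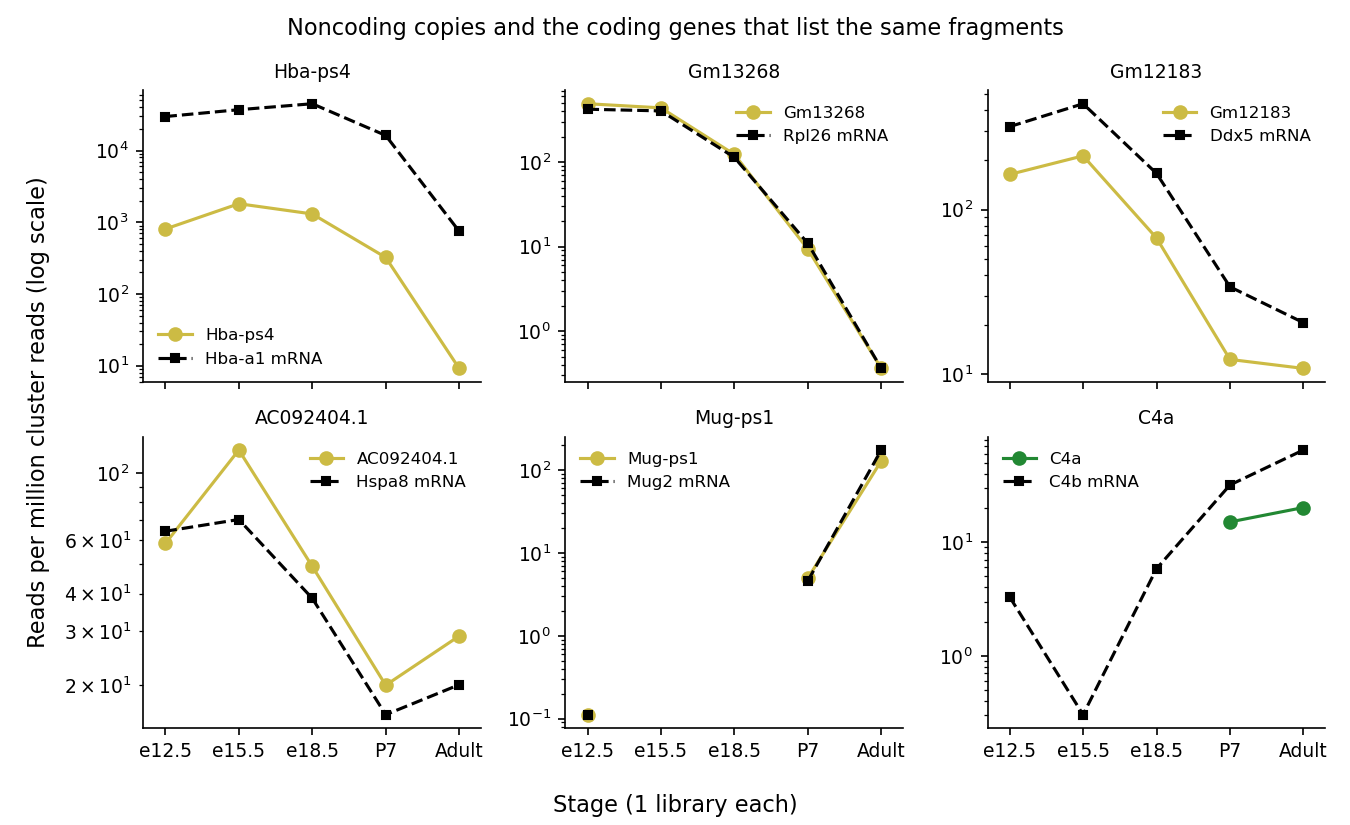
RPM (cluster reads scaled to equal library sums, log scale) by stage for 5 pseudogenes and the lncRNA C4a (circles) and for the coding gene that lists most of the same fragments (squares), 1 library per point. Hba-ps4 and Hba-a1 are both lowest in Adult, and Mug-ps1 and Mug2 both highest. A library without a listed cluster has no point.

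Seed types were close to those of 3′UTR sites. Sites with at least 7 matched bases made up 47.6%, 47.4%, 47.9%, 48.0% and 47.1% of noncoding exon sites in stage order. In 3′UTRs the shares were 47.4%, 49.6%, 50.3%, 48.5% and 48.9%. The noncoding share was smaller at e15.5, e18.5 and in Adult (log2 odds ratios -0.12, -0.13 and -0.10, Fisher's exact test, adjusted p = 2.78e-06, 1.16e-05 and 0.000111 over 5 libraries), and did not pass at e12.5 (adjusted p = 0.567) or P7 (adjusted p = 0.245). Sites of 1 cluster are not independent, and these p-values are too small for that reason. The Adult call was lost without sites shared with a coding gene (Fisher's exact test, adjusted p = 0.0872), and that of e15.5 with the first embryonic lists alone (adjusted p = 0.05002). P7 passed with clusters of at least 10 reads (Fisher's exact test, adjusted p = 0.0233).

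Conservation differed more. The median conservation score, on a scale from 0 to 1, was 0.994 to 0.998 for noncoding exon sites and 0.253 to 0.624 for 3′UTR sites, while sites in coding sequence had 0.928 to 0.981. Pseudogene sites had medians of 0.996 to 0.998, and miRNA gene sites of 1 in every library. The lncRNA sites had medians of 0.019, 0.033, 0.066, 0.036 and 0.166 in stage order. Small structured RNA sites had medians of 0.094, 0.626, 0.8555, 0.387 and 0.666, and sites in exons of coding genes 0.025, 0.006, 0.285, 0.0315 and 0.0015. The median over all noncoding exon sites is thus mainly that of pseudogenes, the class with most sites.

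The miRNAs matched in noncoding exons shifted between e12.5 and Adult for 3 of 12 abundant miRNAs. Clusters with a miR-122-5p site, of the main hepatocyte miRNA, were 55 of 6364 at e12.5 and 65 of 2462 in Adult (log2 odds ratio 1.64, 95% interval 1.11 to 2.16, Fisher's exact test, adjusted p = 2.00e-08). Those with a let-7c-5p site were 48 and 36 (0.97, 0.34 to 1.59, Fisher's exact test, adjusted p = 0.0126). Those with a miR-136-5p site, of the imprinted cluster, were 163 and 30 (-1.09, -1.66 to -0.53, Fisher's exact test, adjusted p = 0.000372). In 3′UTR clusters of the same libraries, 50% of the 12 were larger in Adult and 41.7% smaller by the same test, with many more clusters behind each. Copies of a gene counted as separate clusters, even where they list the same reads. For example, a miR-122-5p fragment was listed in both Rnu2-10 and Gm23444 with the same 75 Adult reads. The clusters are thus not independent, so these p-values are too small and the intervals too narrow.

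The other 9 miRNAs did not pass. miR-194-5p (0.92, adjusted p = 0.0600, Fisher's exact test) and miR-16-5p (0.44, adjusted p = 0.0600) were nearest on the higher side. miR-451a, the red cell miRNA, was nearest on the lower side, with 33 clusters at e12.5 and 5 in Adult (-1.36, 95% interval -2.72 to 0.00, adjusted p = 0.0910), beside -2.33 in 3′UTR clusters. miR-144-3p was at 0.16 in noncoding exons and -0.30 in 3′UTRs of the same libraries. With sites of at least 7 matched bases, miR-122-5p passed but let-7c-5p (adjusted p = 0.0573, Fisher's exact test) and miR-136-5p (adjusted p = 0.106) did not, and miR-142a-3p was smaller (-1.69, adjusted p = 0.016). Without clusters in miRNA genes 4 miRNAs were larger in Adult, with clusters of at least 10 reads 5 were, and without sites shared with a coding gene none was smaller.

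**Figure D5:**
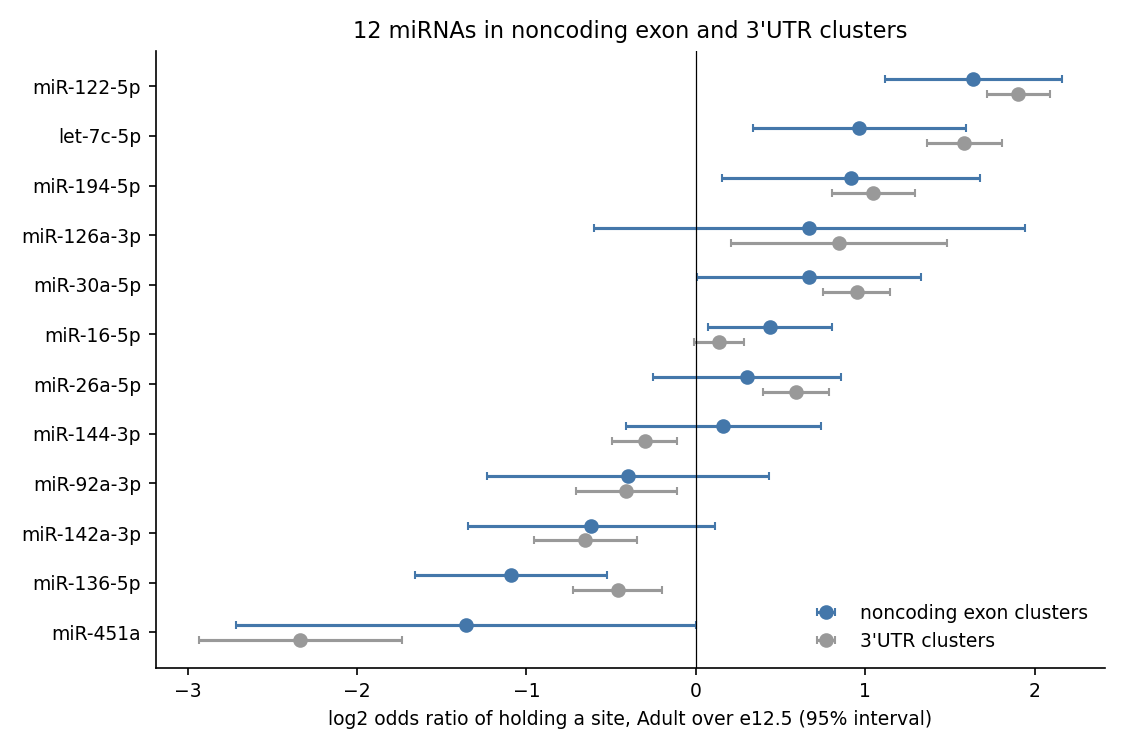
log2 odds ratio of a cluster holding a site of each of 12 miRNAs, Adult over e12.5, with 95% intervals, for noncoding exon clusters and 3′UTR clusters. miR-122-5p is highest and miR-451a lowest in both, with wide intervals in noncoding exons.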

How the data were processed

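Each table deposited by the authors holds 1 row per seed-matched site. Per the study's methods, reads were preprocessed with the FASTX-Toolkit, mapped with Bowtie to mm10 and miRBase precursors, grouped into clusters and annotated with UCSC refGene and Ensembl. The processing notes also name mm9, and target letters matched mm10. The deposited read column is a signal, whole numbers not scaled to library size. The deposited conservation score runs from 0 to 1, by a method not given in the sources used here. The deposited duplex energies, also a score, were not used.

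A gene's value was the sum of its clusters' highest read numbers over both lists, divided by all cluster reads (13008703 to 44867326 per library) to give RPM. For cluster counts, overlapping clusters were joined. Clusters with sites of several classes took the first of miRNA gene, small structured RNA, lncRNA, pseudogene and coding gene. Shares were given Wilson 95% intervals (statsmodels 0.14.6) and compared by two-sided Fisher's exact tests (scipy 1.17.1) adjusted by Benjamini-Hochberg, at a threshold of 0.05. The code was tested on simulated data. miR-126a-3p and miR-142a-3p are the tables' names for miR-126-3p and miR-142-3p.

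Members, classes and gene lists were chosen with earlier results of these data known. Genes were named as follows: up to 6 per class by mean share of noncoding exon reads among those in at least 4 libraries, the 6 highest and 6 lowest ratios of Adult to e12.5, list genes with at least 50 reads, and the 6 sites of the 12 miRNAs with most reads among those in all 5 libraries. Alternatives were a minimum of 10 reads, each list alone, no coding gene listed, at least 7 matched bases, other scalings and limits, and leaving out mitochondrial, miRNA gene or shared sites. Some genes that this rule names are not reported here.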

Additional observations from a re-analysis of the deposited data

How the results depend on the processing

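No paired analysis was possible because each stage has 1 library and the labels give no shared replicate numbers, and no library could be left out for the same reason. Over 12 alternatives, 78 values that answer a comparison kept their call or moved by less than their limit, and the others are given here. The odds ratios are from Fisher's exact tests. With clusters of at least 10 reads, the Adult against e12.5 share of noncoding exon clusters was -0.19 (log2 odds ratio, Fisher's exact test, p = 3.99e-06), the P7 difference in sites of at least 7 matched bases was -0.062 (adjusted p = 0.0233), 5 miRNAs were larger in Adult, and the read share was 40.8% at P7 and 34.1% in Adult. With the first embryonic list alone, the cluster share was -0.30 (Fisher's exact test, p = 5.73e-13), the e15.5 difference in matched bases was -0.13 (adjusted p = 0.05002), 317 genes were in all 5 libraries and the e15.5 read share was 28.2%. With the second list alone, the cluster share was -0.17 (Fisher's exact test, p = 1.86e-06), 387 genes were in all 5 libraries, the e18.5 read share was 31.5%, and Rn7sk turned to 0.11. Of genes under 2-fold as reported, Tug1 turned to 2.84 with the first lists, and Rny3 (0.59) and mt-Rnr2 (0.51) turned with the second. Tug1 was 0.35 with at least 7 matched bases, and mt-Rnr2 0.096 scaled to the library totals of the study. With no coding gene listed, the read share was 39.7% at P7 and 33.2% in Adult. With at least 7 matched bases it was 32.2% at e12.5, 35.1% at P7 and 32.2% in Adult, and 1 miRNA was larger in Adult. Without miRNA genes, 4 miRNAs were larger.

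3 alternatives were chosen after the data had been seen. Without sites whose fragment is also listed under a coding gene, the cluster share turned to 0.22 (Fisher's exact test, p = 0.000167), the lncRNA share was -0.48 (p = 0.0016), the Adult difference in matched bases was -0.075 (adjusted p = 0.0872), 0 miRNAs were smaller, 300 genes were in all 5 libraries, and the read share was 32.0% at e12.5, 39.996% at P7 and 33.8% in Adult. Relative to the median change of all genes (-1.82), 307 genes were higher and 679 lower, and Xist (0.41), Rn7sk (0.19), AC092404.1 (0.81), Tug1 (1.04), Rny3 (1.41) and mt-Rnr2 (1.61) turned higher, among 30 genes followed. Among genes listed in both libraries, 531 were lower. The shares of all genes under these last 2 settings were not computed. The causes were not tested. With 5 Adult clusters for miR-451a, depth limits what a difference between noncoding exon shares can show.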
